A study of Xenopus laevis with 35 samples.

Results

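The samples described here were the brains of tadpoles exposed to PTU for 24, 48 or 96 h, compared with each other by exposure time, and they made up 9 of the 35 arrays of the study. They were chosen by their labels, with 3 arrays per time. All came from Xenopus laevis, the African clawed frog, at stage 54 of the Nieuwkoop and Faber (NF) series, early in metamorphosis. The tadpoles were kept continuously in PTU at 20 mg/L. At each time 5 tadpoles were taken from each of 2 tanks, and RNA of these 10 tadpoles went into 3 separate pools, 1 per array. The labels do not say which of the 6 PTU tanks were sampled when, so tank and time cannot be told apart, and later animals were also older. The spread between arrays is that between pools, which may be partly technical. Control brains of the same stage and times, without a chemical, were used in 1 comparison at the end (9 arrays, 3 per time).

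PTU is propylthiouracil, a thionamide that blocks thyroid peroxidase, the enzyme that iodinates thyroglobulin to make thyroid hormone. Thyroid hormone drives amphibian metamorphosis, and in the tadpole brain it controls proliferation, neuronal differentiation and, as known from mammals, the maturation of oligodendrocytes that make myelin. The question asked was which brain transcripts differed between times within exposed animals.

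Each array measured 449 probes as spots in pairs, of which 250 carry a gene name and stand for 243 genes. The other 199 have no name here and are called by number. Between 104 and 154 probes per PTU array were above background, defined as more than 2 background SDs of that array, so the limit differed between arrays. By time, 104 to 125 probes were above it at 24 h, 112 to 131 at 48 h and 115 to 154 at 96 h. Values below are scaled linear intensities in arbitrary units, after background subtraction by the authors. Log2 changes are of intensity plus an offset of 642 units, so they understate the change of dim probes that carry signal. Values below 0 were first set to 0, and changes of probes at background have no reliable size. The array of 48 h replicate 1 was the brightest and was divided by a scaling factor of 1.91, against 0.743 to 1.08 for the other 8 arrays. The expected tissue was visible in part: gap43.S, a growth-cone protein of neurons, was above background on 9 of 9 arrays, and so was msi1.S (Musashi 1, of neural stem cells), whereas dcc.L, the netrin receptor of growing axons, was above background on 0.

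Between 24 and 96 h of PTU, the level of casp1.L fell, the level of znf208.L rose, and the levels of 5 probes without a gene name fell. Of 439 probes tested in limma, 1 was higher and 6 were lower at 96 h than at 24 h, which is 1.59% (0.228% higher and 1.37% lower). At an unadjusted p under 0.05 there were 31 higher (7.06%) and 19 lower (4.33%). For 43 probes (9.79%) the 3 arrays of 96 h lay entirely above those of 24 h, and for 23 (5.24%) entirely below. With 3 arrays per time, random order alone also separates some probes, so lack of overlap is a description and not a test. The median change of all tested probes was 0.21 (log2), and 64.7% were above 0. This shift was 0.20 with values as deposited. It was 0.02 after quantile normalization and -0.05 with arrays scaled on the median over all probes. Those 2 scalings make the arrays alike in distribution or in median, so a shift near 0 is built into them. They cannot show whether the shift came from the scaling, which was not tested. With these 2 scalings, in that order, the calls split into 0 higher and 6 lower, and 0 higher and 10 lower. They were 3 higher and 0 lower with the offset at the 5th percentile of intensities, and 0 with the odd-numbered spot of each pair alone. All 7 calls ended when any 1 of the 3 arrays of 24 h was left out. Without 48 h replicate 2 the count was 4, all among the 7. Without 96 h replicate 3 it was 4 and without 96 h replicate 2 it was 5, each with only 3 of the 7.

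The gene casp1.L (probe 697) encodes caspase 1, the protease known for activating interleukin 1 beta in inflammation. Its intensity was 7883, 4953 and 3890 at 24 h, 1440, 970 and 3472 at 48 h, and 317, 602 and 1172 at 96 h. The arrays of 96 h lay below all arrays of 24 h, and none of the 96 h values was above background. On these arrays the mean level was therefore at least 3.08-fold lower at 96 h than at 24 h. This bound is a difference of means of log2 intensity plus the offset. In it each 96 h array stands at the lowest signal that counted as above background on it. The bound allows for the background only and not for the spread between pools. The fitted log2 change at 96 h over 24 h was -2.21 (95% interval -3.20 to -1.22), which was called (limma, adjusted p = 0.0435). It was called in 8 of 20 alternatives, with an adjusted p of up to 0.368 in the others. At 48 h over 24 h the fitted change was -1.32 (SE 0.44), which was not called (adjusted p = 0.713). The interleukin gene that caspase 1 acts on in other vertebrates, il1b.S, was above background on 0 of 9 arrays.

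The gene znf208.L (probe 339), called Xfin on the array, encodes a protein with many zinc fingers. It was the 1 probe called higher at 96 h, with 2452, 1435 and 1080 units there, against -1610, -882 and -19 at 24 h. The values of 48 h, at 52, -517 and -1467, overlapped those of 24 h. Only 2 arrays of 96 h and none of the earlier ones were above background. The difference between 96 and 24 h was called (limma, adjusted p = 0.0226), but the 96 h values were so near the background limit that no fold is given. Values below 0 were set to 0 for the fit, so the 24 h arrays became equal and added no spread. The change was called in 8 of 19 alternatives, and not with a generalized log that sets no values to 0. Measured on 1 spot of each pair, this change was not called (adjusted p = 0.06 with the odd-numbered spot and 0.260 with the even-numbered one).

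The other called probes were bright at 24 h. Probe 467 had 13827, 18027 and 12989 units at 24 h, 5315, 4467 and 3972 at 48 h, and 3373, 1708 and 2835 at 96 h. The 3 times did not overlap, and the log2 change at 96 h over 24 h was -2.27 (SE 0.30; limma, adjusted p = 0.0170). Probe 579 had 15957, 14950 and 10743 units at 24 h, 3627, 5246 and 6209 at 48 h, and 3459, 2826 and 2635 at 96 h. All its arrays of 96 h lay below those of 48 h, which lay below those of 24 h, and the change was -1.99 (SE 0.30, adjusted p = 0.0206). Probe 581, next to it in the probe order, had 21193, 21356 and 8114 units at 24 h, 1879, 5390 and 6128 at 48 h, and 1631, 1630 and 1497 at 96 h. Its fitted change was -2.86 (SE 0.48, adjusted p = 0.0252), with 1 of its 3 arrays at 96 h above background, so the level at 96 h is uncertain.

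Probe 465, next to 467 in the probe order, had 11522, 11428 and 5713 units at 24 h, 2744, 3333 and 3415 at 48 h, and 2311, 299 and 1752 at 96 h. Its change was -2.38 (SE 0.46; limma, adjusted p = 0.0435), again without overlap between the 3 times. The 299 units of 96 h replicate 2 were below the background SD of that array, 414 units, so the level of probe 465 at 96 h is uncertain. Probe 1173 had 14664, 16346 and 16898 units at 24 h, 14950, 11678 and 9198 at 48 h, and 5944, 4968 and 4649 at 96 h. Its arrays of 24 and 48 h overlapped, those of 96 h lay below both, and the change at 96 h over 24 h was -1.51 (SE 0.28, adjusted p = 0.0346). Of 20 alternatives for each probe, this comparison was called in 14 for 467, 14 for 579, 11 for 581, 8 for 465 and 8 for 1173. Whether the neighbouring probes 465 and 467, or 579 and 581, carry related sequences is not given in the sources used here.

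**Figure D1:**
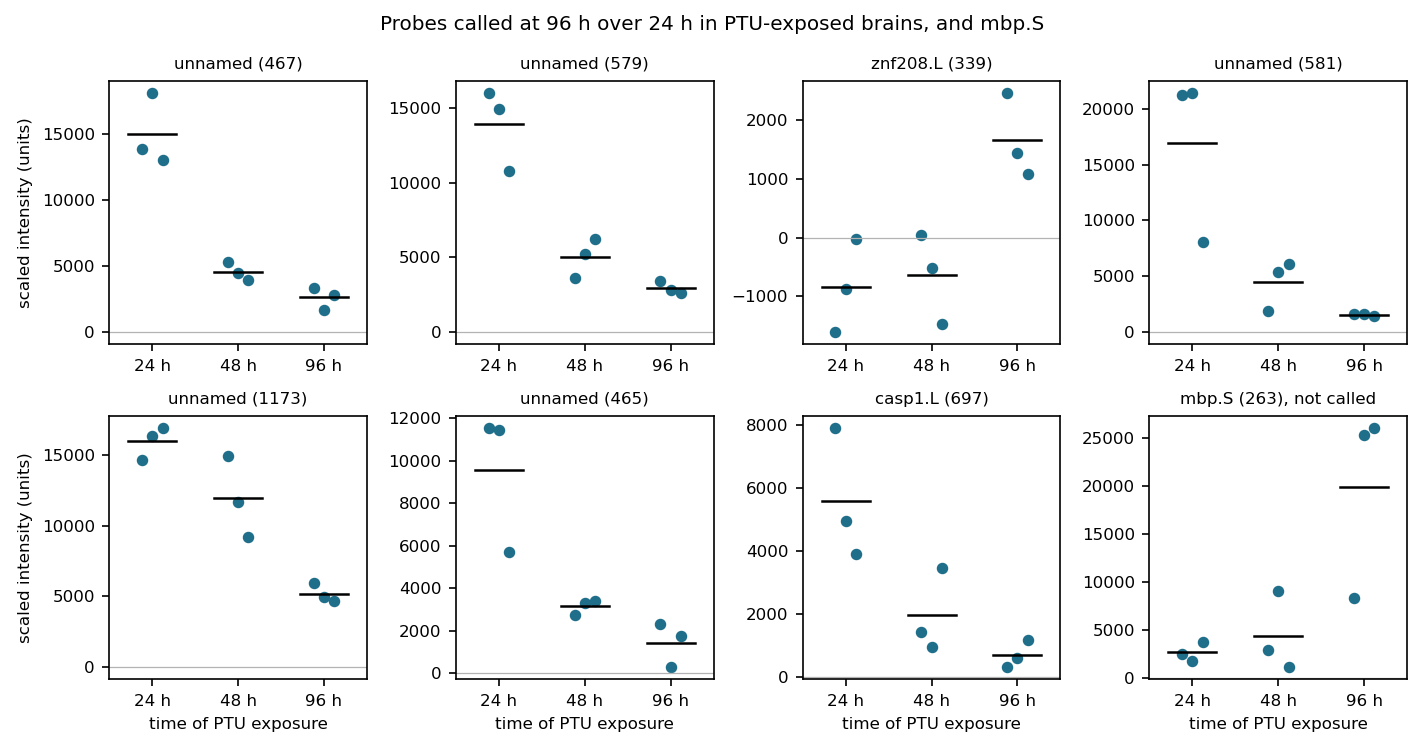
Scaled intensity (arbitrary units, linear axes that differ between panels) of the 7 probes called at 96 h over 24 h and of mbp.S, which was not called, by time of PTU exposure. Points are single arrays, 3 per time, and horizontal lines are means: probes 467, 579, 581 and 465 already lay lower at 48 h, while znf208.L stood at or below 52 units on every array before 96 h.

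Neither shorter step gave a call. At 48 h against 24 h, limma called 0 of 439 probes (0%), with 7 higher (1.59%) and 14 lower (3.19%) at an unadjusted p under 0.05 and a smallest adjusted p of 0.258. The arrays of 48 h lay entirely above those of 24 h for 32 probes (7.29%) and entirely below for 29 (6.61%). At 96 h against 48 h it called 0 of 439 (0%), with 22 higher (5.01%) and 2 lower (0.456%) at an unadjusted p under 0.05 and a smallest adjusted p of 0.0793. The arrays of 96 h lay entirely above those of 48 h for 29 probes (6.61%) and entirely below for 14 (3.19%). A single test for any difference between the 3 times called 3 probes (0.683%), which were 467, 579 and znf208.L (adjusted p = 0.0416 for each). That count was 0 without any 1 of 8 arrays and kept calls only when 96 h replicate 3 was the array left out. For probes 467, 579, 581 and 465, most of the fitted difference lay in the first step. Their changes at 48 h over 24 h were -1.57, -1.37, -1.78 and -1.37, in that order. Probe 1173, also bright at 24 h, had the larger fitted change in the second step, with -0.42 in the first step and -1.09 in the second. Whether the steps or the probes differed in this timing was not tested.

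Across the 46 probes that exceeded background on every PTU array, the arrays of 96 h were least like those of 24 h. Their mean correlation was 0.766 across 9 pairs of arrays (range 0.610 to 0.880), against 0.893 between 96 h and 48 h and 0.843 between 48 h and 24 h. Within a time it was 0.904 at 96 h, 0.900 at 48 h and 0.903 at 24 h. These correlations run across probes, which share array and scaling, so they are a description. The lowest value was that between 96 h replicate 3 and 24 h replicate 2.

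**Figure D2:**
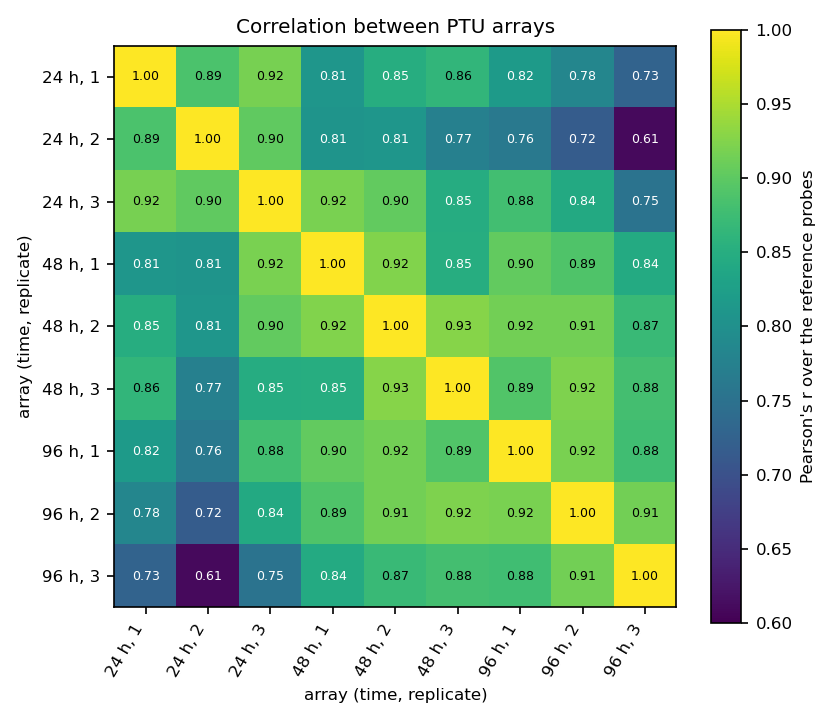
Pearson's r between each pair of the 9 PTU arrays, over the log2 intensity of 46 probes that exceeded background on each array, with arrays ordered by time and replicate on both axes. Pairs within a time range from 0.849 to 0.927, and the pairs of 96 h with 24 h from 0.610 to 0.880.

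Among genes with a name, several differed widely in mean without passing the test, and they are given here as values. The myelin basic protein gene mbp.S (probe 263), whose product compacts the myelin sheath, had 2499, 1702 and 3771 units at 24 h, 2869, 9054 and 1098 at 48 h, and 8280, 25398 and 26058 at 96 h. Every array of 96 h lay above all of 24 h, though 96 h replicate 1 was below 1 array of 48 h. The mean was 19912 ± 10079 at 96 h and 2658 ± 1044 at 24 h (SD, n = 3 each). The log2 change was 2.53 (SE 0.66; limma, adjusted p = 0.103), with a 95% interval of 1.02 to 4.03. It was called in 2 of 20 alternatives, with dim probes removed (adjusted p = 0.0367), where 131 probes and not 439 were tested, and with an intensity trend in the spread (adjusted p = 0.000742). In the other 18 it was not called, with an adjusted p of up to 0.372 in limma. The log2 change was lowest, at 1.84, with the all-probe scaling. Without 96 h replicate 3 the adjusted p was 0.369.

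Of 5 genes of axons and myelin, mbp.S included, 0 were called, 3 were above 0 and 2 below, with a median of 0.27 (log2) against 0.21 over all probes. The median was 0.86 over the 3 of them above background on at least 3 arrays, mbp.S, gap43.S and cntn1.L. The growth-cone gene gap43.S had 17960, 10835 and 21129 units at 24 h, 19996, 26909 and 26147 at 48 h, and 24497, 34458 and 30562 at 96 h. Its arrays of 96 h lay above those of 24 h, with a change of 0.86 (SE 0.32; limma, adjusted p = 0.342). The axonal adhesion gene cntn1.L ranged from 204 to 5905 units with wide overlap, and dcc.L and the ephrin receptor gene epha4.L were above background on 0 arrays.

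In the cytoskeleton list, 0 of 6 genes were called, 5 were above 0 and 1 below, with a median of 0.50. The median was -0.06 with arrays scaled on the median over all probes (3 above and 3 below). It was 0.50 after quantile normalization and 0.52 with values as deposited. The beta tubulin gene tubb4b.L (probe 267) had 14981, 11310 and 16201 units at 24 h, 17343, 19295 and 28757 at 48 h, and 26217, 35280 and 26118 at 96 h. No array of 24 h reached those of 48 or 96 h, and the change at 96 h over 24 h was 1.01 (SE 0.31; limma, adjusted p = 0.193). The gene of alpha-internexin, a neuronal intermediate filament (ina.S, probe 271), had -191, -160 and 242 units at 24 h, 204, 256 and 342 at 48 h, and 717, 900 and 1282 at 96 h (adjusted p = 0.0799 at 96 h over 24 h). Although its 96 h values were the highest, 1 of 9 arrays was above background and no fold is given. The remaining members, xnf7.L, tpm4.S, coro1c.L and kif2c.S, lay between -0.13 and 0.63.

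Of 6 genes of neural stem cells and neuronal differentiation, 0 were called, 4 were above 0 and 2 below, with a median of 0.73. The median was 0.24 with the all-probe scaling, 0.56 after quantile normalization and 0.75 with values as deposited. The neuronal differentiation factor neurod1.L (probe 89) was at -543, -115 and 279 units at 24 h, 1527, 1375 and 812 at 48 h, and 2344, 1232 and 811 at 96 h. All arrays of the later times lay above all of 24 h, where none was above background (limma, adjusted p = 0.0799 at 96 h and 0.515 at 48 h, each over 24 h). Its relative neurog2.L was above background on 2 arrays of 96 h (3425 and 1702 units) and none of 24 h, and zic2.L, a zinc-finger factor of neural precursors, likewise (2715 and 1889). The changes of msi1.S, -0.09, and of id2.L, an inhibitor of basic helix-loop-helix factors such as neurod1, 0.26, were small beside their SEs of 0.42 and 0.40. The replication inhibitor geminin (gmnn.S) was above background on 1 array.

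**Figure D3:**
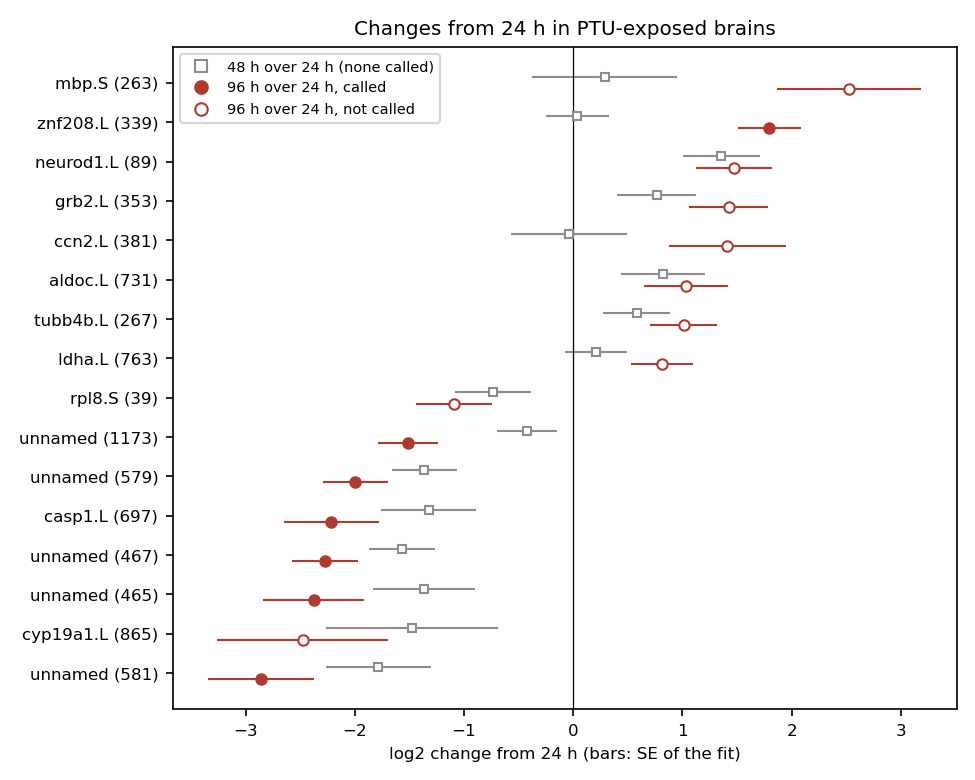
Log2 change from 24 h in PTU-exposed brains of the 16 probes named for the comparison of 96 h with 24 h, at 48 h (grey squares) and 96 h (circles, filled where called), with bars of 1 SE. Among the probes lower at 96 h, 1173 has the change nearest 0 at 48 h (-0.42), and among those higher, mbp.S is at 0.29 at 48 h and 2.53 at 96 h. Values of dim probes (casp1.L, znf208.L, neurod1.L) are fitted changes, not folds.

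In the kinase and transcription-response list, 0 of 18 genes were called, 14 were above 0 and 4 below, with a median of 0.45. With the all-probe scaling 10 were above and 8 below, after quantile normalization 11 and 7, and with values as deposited 13 and 5. The 3 genes with a fitted change above 1.0 were fgf20.L (1.60), a fibroblast growth factor, egr2.L (1.26), a factor of hindbrain segments and myelinating cells, and bmp1.S (1.24), a procollagen protease (adjusted p = 0.495, 0.374 and 0.233 in limma). Each was above background on at most 4 of 9 arrays. Outside the lists, grb2.L (probe 353), the adaptor that couples receptor tyrosine kinases to Ras, had 237, 1150 and 643 units at 24 h, 1346, 1689 and 1502 at 48 h, and 3261, 3687 and 1672 at 96 h. Its arrays of 24 h lay below those of both later times, with a change of 1.42 (SE 0.36; adjusted p = 0.0946) at 96 h over 24 h. The matricellular protein gene ccn2.L had a change of 1.41 (adjusted p = 0.342).

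Among 19 cell cycle genes, 18 could be tested and 0 were called, with 9 above 0, 9 below and a median of 0.03. The median was -0.24 with the all-probe scaling, -0.15 after quantile normalization and 0.02 with values as deposited. The replication clamp gene pcna.S, above background on 9 of 9 arrays, lay between 1987 and 6817 units per array with overlap between all times (-0.10 at 96 h over 24 h, 95% interval -1.10 to 0.89). The helicase subunit mcm2.L was above background on all 3 arrays of 96 h (2341, 1066 and 1957) and on none of 24 or 48 h, where it was at 495 to 957 units (limma, adjusted p = 0.435 at 96 h over 24 h and 0.766 over 48 h). The background limit differed between these arrays: the scaled background SD was 414 units on 96 h replicate 2 and 551 to 786 at 24 h. The antiproliferative gene btg1.S was at 0.66 (adjusted p = 0.583).

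The glycolytic genes were bright on all 9 arrays. All 5 were above 0 at 96 h over 24 h, 0 were called, and the median was 0.23. With the all-probe scaling 2 were above 0 and 3 below, with a median of -0.36. After quantile normalization 4 were above 0 and 1 below (median 0.22), and with values as deposited 5 and 0 (median 0.27). For ldha.L (probe 763), lactate dehydrogenase A, the intensity was 3160, 3233 and 3330 at 24 h, 2882, 4337 and 4528 at 48 h, and 7569, 4899 and 6332 at 96 h. The 96 h arrays lay above all others, with a change of 0.81 (SE 0.28; limma, adjusted p = 0.286). The brain aldolase gene aldoc.L was at 1.04 (adjusted p = 0.342). The glycolytic genes gapdh.S, pkm.S and ldhb.S were at 0.03, 0.20 and 0.23, each with overlapping times.

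Genes of translation lay on the low side: of 3 genes 0 were called, with 1 above 0, 2 below and a median of -1.02, which stayed below 0 in each other scaling (-1.58 to -0.62). The large-subunit protein gene rpl8.S was measured by 5 probes. Probe 39 had 91069, 104775 and 60741 units at 24 h, 36565, 56884 and 59804 at 48 h, and 49741, 39775 and 29296 at 96 h. All its arrays of 24 h lay above the later ones (-1.09, SE 0.35, at 96 h over 24 h; limma, adjusted p = 0.233). The probes of this gene disagreed, with changes of -1.02, -0.69 and -0.42 for probes 81, 493 and 929. Probe 273, at -0.00061, had overlapping times, with 45182, 57794 and 27180 units at 96 h against 45102, 42744 and 36945 at 24 h. The list counted rpl8.S by its brightest probe, 81, and the list median of -1.02 is the change of that probe. Another large-subunit gene, rpl35a.S, was at -1.11 (adjusted p = 0.312), and pabpc1.S, which binds poly(A) tails, was at 0.09.

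The genes that respond to thyroid hormone or act in its axis gave little signal. Of 9, 0 were called in any of the 3 time comparisons, and at 96 h over 24 h 7 were above 0 and 2 below, with a median of 0.20. After quantile normalization, and with the all-probe scaling, 4 were above 0 and 5 below, and with values as deposited 7 and 2. The direct hormone target klf9.L, the coactivator ncoa2.S, the releasing hormone trh.S, and crhbp.S and crhr1.2.S of the corticotropin-releasing hormone system were above background on 0 of 9 arrays. The hormone-induced factor thibz.L was above background on 1, 96 h replicate 1, at 5216 units. The serine protease gene fap.L, which responds to thyroid hormone in tadpoles, had 1742, 1952 and 1929 units at 24 h, 1637, 1295 and 5163 at 48 h, and 4093, 2470 and 1021 at 96 h. Its times overlapped, with a change of 0.21 (95% interval of the log2 change -0.92 to 1.34). The remaining member, crhr2.S, was above background on 1 array.

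The retinoid X receptor gene rxrb.L (probe 203), whose product pairs with thyroid hormone receptors, had its lowest values in the middle. It had 1725, 1371 and 1513 units at 24 h, 367, -220 and 326 at 48 h, and 1675, 470 and 3431 at 96 h. No 48 h array reached those of the other times, and none was above background. The difference was not called in either step (limma, adjusted p = 0.713 at 48 h over 24 h and 0.559 at 96 h over 48 h). All 10 genes of the nuclear receptor list were above 0 at 96 h over 24 h, with a median of 0.48 and 0 calls. However, 8 of them were above background on fewer than 3 arrays. With the all-probe scaling 6 were above 0 and 4 below, after quantile normalization 8 and 2, and with values as deposited 10 and 0. Aromatase (cyp19a1.L), which makes estrogen in the brain, was at -2.48 (SE 0.79; adjusted p = 0.243) from 2 values at 24 h.

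For pituitary hormones and receptors, 0 of 3 genes were called, with a median of 0.86. That median is the change of the dim prlr.L, and gh1.S was the only member above background on 3 or more arrays. The growth hormone gene gh1.S had 8698, 6892 and 6734 units at 24 h, 8063 and 7973 at 48 h, and 2152, 3270 and 11207 at 96 h, so 2 of the 3 late arrays were below all earlier ones and 1 above them. The change was -0.67 (SE 0.53; limma, adjusted p = 0.721). Brain samples can carry variable amounts of pituitary, which is the source of this hormone, and what part that had here was not tested. The prolactin gene prl.1.L and the receptor gene prlr.L were each above background on 1 array.

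The other lists have mostly dim members, and their 1 call was casp1.L, of the apoptosis and DNA damage list. Of 6 chromatin genes 5 were above 0 (median 0.65), with the nucleosome-binding protein gene hmgn3.L, among the brightest named, at 0.78 (adjusted p = 0.465 in limma). Of 9 forebrain and other homeobox or LIM genes 7 were above 0 (median 0.70), with 1 above background on 3 or more arrays, lmo3.S at 0.71. The medians were 0.41 for 5 Wnt pathway genes, 0.40 for 3 of chaperones and protein turnover, 0.34 for 7 of neuropeptides, transmitters, channels and synapse, and 0.33 for 9 of matrix and proteases. The 7 genes listed with casp1.L lay between -0.10 and 1.12. With the all-probe scaling the medians of these 7 lists lay between -0.03 and 0.24. They lay between -0.12 and 0.59 after quantile normalization, and between 0.14 and 0.73 with values as deposited.

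**Figure D4:**
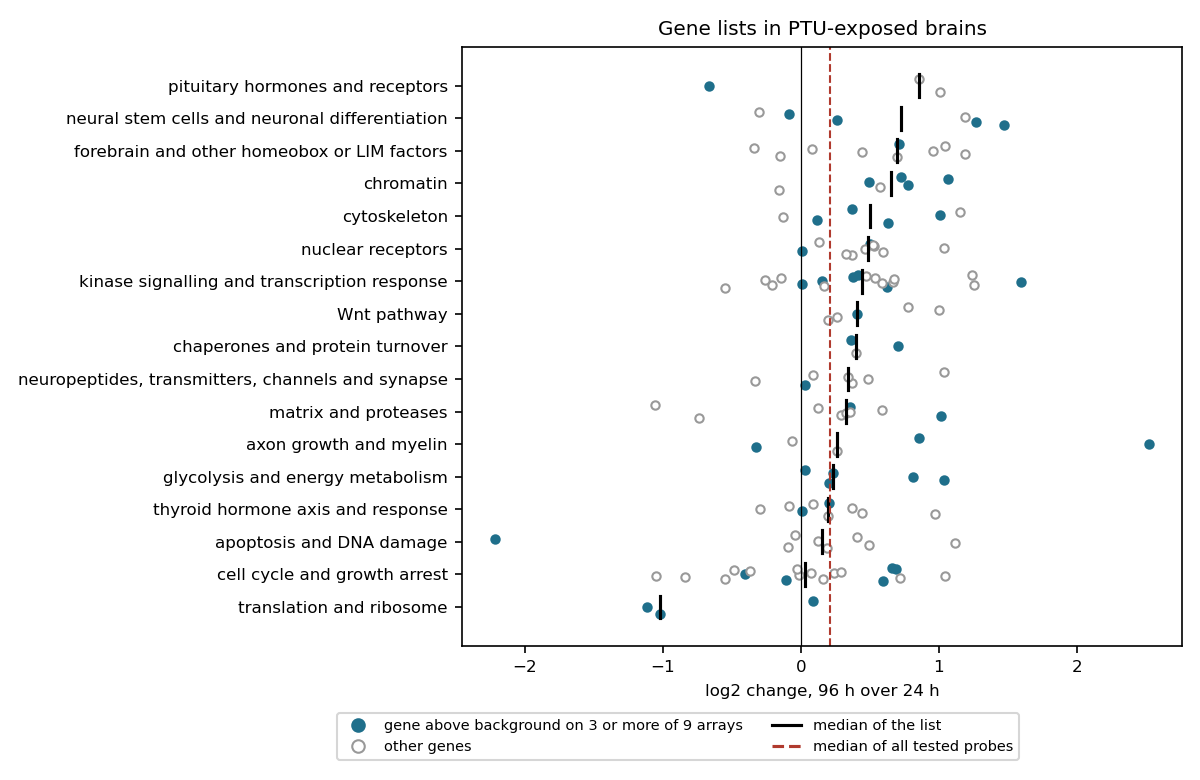
Log2 change at 96 h over 24 h in PTU-exposed brains for each gene of 17 lists (points, the brightest probe per gene, filled where above background on 3 or more of 9 arrays). Black bars are list medians, from -1.02 for translation to 0.86 for pituitary hormones and receptors, where the median is that of a dim gene. The dashed line is the median of all 439 tested probes, 0.21.

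Of the markers of other tissues, 0 were called in any time comparison. The growth hormone gene gh1.S was above background on 8 of 9 arrays, and the others on at most 2. With prl.1.L and pax8.L, as markers of pituitary and thyroid gland, it summed to 6391 to 8036 units at 24 h, 818 to 8003 at 48 h, where 1 array has no gh1.S value, and 1427 to 13594 at 96 h. The red blood cell gene hbd.S was at 780 to 1360 units at 24 h, 93 to 689 at 48 h and 600 to 2423 at 96 h, above background on 1, 0 and 1 arrays. The summed level of 2 muscle markers, myf5.L and myf6.L, ranged from 228 to 1155 at 24 h, -1313 to 326 at 48 h and -693 to 1646 at 96 h. That of 2 genes listed for liver, pancreas and gut, fabp2.L and prss8.S, was -2314 to 4938, -1114 to 128 and 773 to 1962. Of these, prss8.S had too few values to be tested, and its missing values were left out of the sums. The immune marker il1b.S reached 1296 at most. The 3 neuron markers summed to 13084 to 21865 at 24 h, 21473 to 28131 at 48 h and 24375 to 37840 at 96 h, with gap43.S carrying the difference, npy.S at 0.03 and dcc.L above background on 0 arrays. The 3 glia and progenitor markers summed to 4528 to 8333, 4740 to 15273 and 13006 to 29538, with msi1.S and glul.L at -0.09 and -0.07 and mbp.S carrying the difference. A larger share of a cell type and more RNA per cell cannot be told apart in these pools, and their part in the results was not tested.

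Whether these time differences were those of exposed brains in particular was tested on 18 arrays, by the difference between the change in PTU brains and that in control brains. In limma 0 of 438 probes were called (0%) at 96 h over 24 h, with 31 higher (7.08%) and 10 lower (2.28%) at an unadjusted p under 0.05 and a smallest adjusted p of 0.0584. At 48 h over 24 h 0 of 438 were called (0%), with 11 higher (2.51%) and 12 lower (2.74%). The count at 96 h depended on control arrays: it was 6 without control 96 h replicate 1 and 5 without control 24 h replicate 1. At 96 h, an array's mean correlation with its own group was 0.870 to 0.906 with PTU and 0.676 to 0.788 in controls. The scaled background SD was 1348 to 1844 in controls at 24 h and 859 to 1365 at 96 h. With PTU it was 633 to 1027 at 24 h and 254 to 788 at 96 h. In controls of 96 h, 79 to 114 probes per array were above background, against 115 to 154 with PTU.

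The probes that fell with PTU had lower fitted means at 96 h in control brains as well. The fit with controls had its own scaling (21 reference probes) and offset (831 units). Each of the 6 changes with PTU was lower in it than in the fit of PTU arrays alone. That earlier fit gave -2.27 for probe 467, -1.99 for 579 and -1.51 for 1173. How far the scaling moved the changes in controls was not tested. The log2 change at 96 h over 24 h was -2.64 with PTU and -2.43 in controls for probe 467, and -2.40 with PTU and -1.67 in controls for 579. It was -3.19 with PTU and -2.71 in controls for 581, -2.58 with PTU and -2.21 in controls for 465, and -1.98 with PTU and -2.44 in controls for 1173. For casp1.L the fitted change was -2.40 with PTU and -1.89 in controls. None of the 6 differences was called (limma, adjusted p = 0.834 to 0.943). The 95% intervals remain wide, from -1.92 to 1.51 for probe 467 and from -2.20 to 1.17 for casp1.L, and the test does not show that the changes were alike. In this fit, where 21 of 438 probes (4.79%) were called lower in control brains, probes 467, 581, 465 and 1173 were among them (adjusted p = 0.0202, 0.0114, 0.0282 and 0.00507), and casp1.L and 579 were not (0.0605 and 0.0554).

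For znf208.L the fitted change was 1.37 with PTU and 0.32 in controls, a difference of 1.06 (SE 0.58; limma, adjusted p = 0.570), and no control array was above background. For mbp.S it was 1.98 with PTU and 0.31 in controls, a difference of 1.67 with a 95% interval of -0.34 to 3.68 (adjusted p = 0.599). For ldha.L it was 0.33 with PTU and -1.42 in controls, where no array of 96 h was above background (difference 1.75, SE 0.53; adjusted p = 0.202). The smallest adjusted p belonged to dcc.L, pparg.L and the unnamed probe 809, at 0.14, 0.41 and 0.16 with PTU and -2.10, -1.72 and -1.80 in controls. On PTU arrays, dcc.L and pparg.L were above background on 0 of 9 and probe 809 on 9 of 9. The fit of PTU arrays alone, scaled separately, gave higher changes with PTU for znf208.L (1.80), mbp.S (2.53) and ldha.L (0.81).

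**Figure D5:**
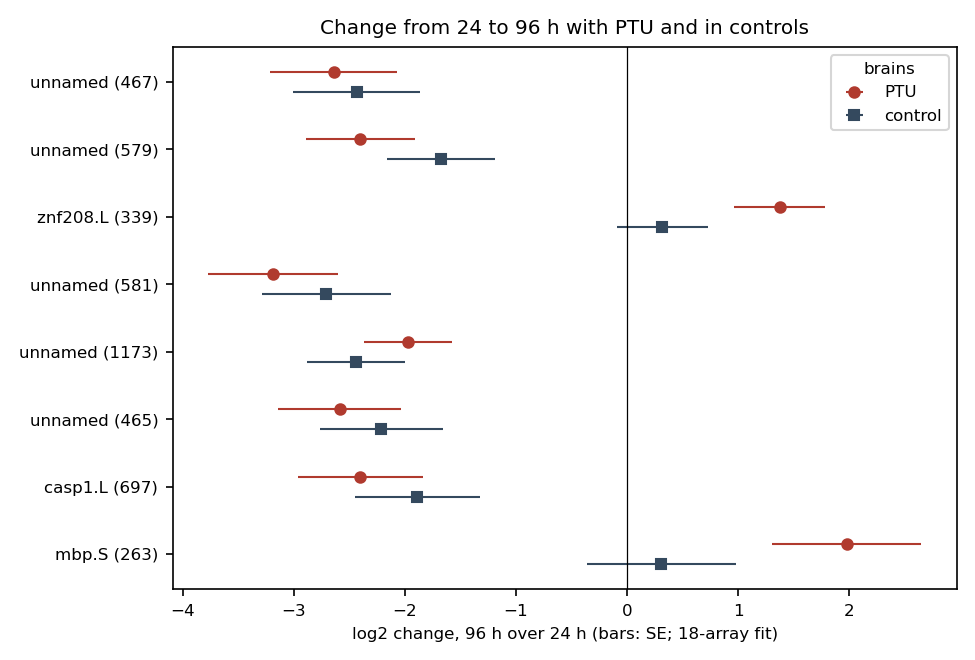
Fitted log2 change at 96 h over 24 h (bars of 1 SE) with PTU (red circles) and in control brains (blue squares), from 1 fit of 18 arrays, for the 7 called probes and mbp.S. This fit has its own scaling and offset, and its changes with PTU differ from those fitted on PTU arrays alone. Probes 467, 579, 581, 465, 1173 and casp1.L are below 0 in both, and mbp.S and znf208.L are nearer 0 in controls, with no called difference.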

How the data were processed

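Per the labels' protocols, pools of brain RNA were amplified, and cDNA made from them with 32P was read on arrays of 1 channel. The authors deposited linear intensity values, in whole numbers, for 898 spots. Many are below 0, so a background had been taken off. What method, scanner and scaling were used is not given in the sources used here. Neighbouring spots were averaged into 449 probes. The background SD of an array was the root mean square of its negative values. Arrays were scaled on their median log2 over the 46 probes above background on all 9 PTU arrays (21 probes for the 18 arrays with controls). Values below 0 were set to 0, an offset of 642 (831 for 18 arrays), the median background SD, was added and log2 taken. Probes with at least 2 values per time were fitted in R 4.3.3 by lmFit and eBayes of limma 3.58.1 (6 residual degrees of freedom), with Benjamini-Hochberg adjustment and calls at an adjusted p under 0.05. No depth exists for arrays, and their number limits the precision.

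Symbols came from the platform annotation of the probes, updated through Entrez gene IDs for 247 of 250 named probes. Genes were named by a rule: all called probes, the next by p among named probes above background on at least 3 arrays up to 8 per direction, the 10 brightest, the thyroid hormone list, and the 2 brightest of each other list. Samples, lists and rule were chosen with earlier results of these data known. Alternatives were the scaling, offset, floor, dim-probe filter, arrays in the fit, replicate block, single spots, spread model, the labels' fold rule, and leaving out each array. The code was tested on simulated data. Figures used matplotlib 3.10.9 in Python 3.11.15.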

Additional observations from a re-analysis of the deposited data

Results flagged for a closer look

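The array of PTU 48 h replicate 1 stood apart in its overall brightness. Its median over the reference probes was 0.93 (log2) above the mean of the 9 PTU arrays, while the other 8 lay between -0.43 and 0.11. The gap to the nearest array exceeded Dixon's 95% limit for a set of 9, which chance exceeds in about 1 in 20 sets. The limit was also applied to the background SD, the probes above background and the agreement of paired spots, without a flag. With several measures looked at, a flag by chance is likelier than that rate. After scaling, this array had a mean correlation of 0.886 with the others of 48 h, which had 0.926 and 0.888. Without it, 5 probes were called at 96 h over 24 h in limma and 0 at 48 h over 24 h, and with the values as deposited 7 and 0 were called.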

How the results depend on the processing

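With 3 pools per time and 6 residual degrees of freedom, 45 of 48 named probe results kept their direction under every alternative. These results had been chosen by p from the same arrays, so a kept direction was partly set by that choice. Sizes moved, at 96 h over 24 h from 1.14 to 4.67 for znf208.L, 0.79 to 3.64 for neurod1.L, 0.18 to 1.02 for ldha.L and 0.31 to 1.23 for tubb4b.L. The exceptions in direction were btg1.S at 48 h over 24 h (-0.10 with the even-numbered spot), ets1.S at 96 h over 48 h (-0.0855 with the even-numbered spot) and ldha.L at 96 h over 48 h (-0.00778 with the all-probe median). The cause was not tested. For 96 h over 24 h, limma called 3 probes with the offset at the 5th percentile (3 higher, 0 lower), 13 among probes above background on at least 3 arrays (5 and 8), where fewer probes were tested, 11 with all 35 arrays in the fit (1 and 10), 0 with the odd-numbered spot, 3 with the even-numbered spot and 11 with an intensity trend and robust spread (3 and 8). Of the 7 calls, 1 was shared with the offset setting and 6 with the dim-probe filter. Leaving out each array gave 0 to 6 calls. For 48 h over 24 h the count was 1 with the even-numbered spot and 2 with the intensity trend, and 0 without each array. For 96 h over 48 h it was 1 with the 5th percentile offset and 1 with the intensity trend, and 0 to 1 without each array. The test for any difference between times called 0 with values as deposited, 5 with the all-probe median, 1 with the 5th percentile offset, 0 with a generalized log, 5 with the dim-probe filter, 8 with 35 arrays, 0 with the odd-numbered spot and 9 with the intensity trend, and 0 to 3 without each array. The labels' rule, a mean fold of at least 2 with a limit on the spread and no p-value, took 111, 125 and 120 probes at 48 h over 24 h, 96 h over 24 h and 96 h over 48 h. The difference from controls gave 1 call with the 5th percentile offset and 6 with 35 arrays at 96 h over 24 h, and 0 to 6 without each array. At 48 h over 24 h it gave 0 to 2.

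Replicate numbers did not pair the arrays consistently: same-numbered arrays of different times had correlations of deviations from -0.14 to 0.18 over 131 probes. Of 9 such pairs 2 were over 0.1, and 5 of 9 arrays correlated best with their own number. The same-numbered pairs had 0.18, 0.06 and 0.15 between 24 and 96 h. Between 24 and 48 h they had -0.14, -0.05 and -0.09, and between 48 and 96 h -0.05, -0.12 and 0.08. With a replicate block 0 probes were called at 96 h over 24 h and 0 in the test for any difference between times, and no other count of calls changed. Levels under 2 background SDs have no reliable size.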

Other observations

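Among probes without a gene name that were not called, 3 bright ones without overlap between 96 and 24 h are given here. They were chosen after their values were seen, and the choice is not a complete list. All 3 were called at 96 h over 24 h with dim probes removed and with an intensity trend in the spread. Probe 909, not described here, was also called in both of these settings. Probe 365 had 11873, 13111 and 14324 units at 24 h, 26126, 28245 and 29186 at 48 h, and 24536, 37733 and 44727 at 96 h, with every later array above those of 24 h (1.36, SE 0.29, log2 at 96 h over 24 h; limma, adjusted p = 0.0676). Probe 261 had 1267, 2328 and 3235 units at 24 h, 2608, 5019 and 2090 at 48 h, and 6854, 7435 and 8332 at 96 h, where all arrays lay above the earlier times (1.54, SE 0.38; adjusted p = 0.0852). Probe 691 had 13458, 9255 and 6602 units at 24 h, 2685, 4766 and 4307 at 48 h, and 2002, 3164 and 3661 at 96 h (-1.52, SE 0.36; adjusted p = 0.0799).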
